A study of Homo sapiens with 6 samples.

Results

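The secreted Wnt antagonists examined here are 9 genes, SFRP1, SFRP2, SFRP4, SFRP5, DKK1, DKK2, DKK3, DKK4 and WIF1, chosen by name as inhibitors of Wnt signalling whose genes are often methylated in colorectal cancer. Rows for 6 of the 9, out of 16715 genes in the table, were found by Ensembl identifier: SFRP1, SFRP4, DKK1, DKK2, DKK3 and DKK4. SFRP2, SFRP5 and WIF1 were not analysed here. The RNA-seq libraries came from HCT116, a human colorectal carcinoma line at passages 7 to 10. Of the 6 libraries, 3 were from cells given 5 µM 5aza over 48 hours and then kept for another 48 hours without it in new medium, and 3 were from cells labelled control, for which no vehicle is given. All libraries are thus from 1 line in culture. Azanucleosides are cytidine analogues that are built into DNA or RNA; in DNA they bind methyltransferases covalently, and the methyl marks are then diluted over cell divisions. The columns of the treated libraries carry the code DAC, and no source used here gives the compound's full name. DNA methylation was not among the measurements used here.

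Wnt proteins bind a Frizzled receptor together with the coreceptor LRP5 or LRP6, and this stops the breakdown of β-catenin, which then acts with TCF factors on target genes. Secreted frizzled-related proteins (the SFRP genes) and WIF1 bind Wnt proteins themselves, whereas DKK1, DKK2 and DKK4 bind LRP5 and LRP6 and, with a Kremen protein, take the coreceptor off the cell surface. DKK3 is a divergent member of the Dickkopf family that does not bind LRP5 or LRP6 as its relatives do. In the colon Wnt signalling maintains the stem cells of the crypt, and it is active without restraint in most colorectal carcinomas. HCT116 cells carry an activating mutation of CTNNB1, the β-catenin gene, which acts downstream of all these antagonists. DKK1 and DKK4 are themselves known as target genes of β-catenin and TCF.

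Promoter sequences were matched in RefSeq for 5 of the 9 genes (GRCh38.p14, DKK1, SFRP2, SFRP4, SFRP5 and WIF1), and not for SFRP1, DKK2, DKK3 and DKK4. Since DNA methyltransferases act on CG dinucleotides, the 250 bases upstream of the annotated start are shown for DKK1, the most abundant of the genes, and for SFRP4, which was near 0 in every library. They are written 5′ to 3′ on the gene's own strand, with each CG in capitals. The start used is that of RefSeq. For SFRP4 it lies inside the longer span that GENCODE gives the gene over 3 transcripts, 37905932 to 38025695. Whether any of these transcripts starts at the RefSeq position was not examined. For DKK1 the stretch shown ends at 52314280, and the GENCODE span begins at 52314296.
DKK1, chr10:52314031-52314280, plus strand: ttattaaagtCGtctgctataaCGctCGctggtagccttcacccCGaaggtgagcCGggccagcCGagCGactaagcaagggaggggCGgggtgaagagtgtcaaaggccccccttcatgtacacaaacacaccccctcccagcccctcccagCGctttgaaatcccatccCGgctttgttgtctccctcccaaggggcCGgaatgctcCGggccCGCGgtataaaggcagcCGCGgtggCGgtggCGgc
SFRP4, chr7:37916818-37917067, minus strand: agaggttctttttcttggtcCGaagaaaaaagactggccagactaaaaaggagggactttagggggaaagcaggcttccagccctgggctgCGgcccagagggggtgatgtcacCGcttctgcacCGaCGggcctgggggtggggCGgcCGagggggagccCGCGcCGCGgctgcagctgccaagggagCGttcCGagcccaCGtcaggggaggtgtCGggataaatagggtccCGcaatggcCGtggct
The upstream stretch held 18 CG dinucleotides for DKK1 and 17 for SFRP4. With the 50 bases after the start included, the 300-base window held 20 CG dinucleotides for DKK1 and 23 for SFRP4, against a median of 14 over 35116 windows. At least as many CG dinucleotides were found in 41.2% of all windows as for DKK1 and in 35.8% as for SFRP4. The gene with the highest level and a gene near 0 therefore had similar CG content in these windows. The windows of the 5 genes held between 15 and 29. The letters CTTTGAA or CTTTGAT, forms of the sequence that TCF factors bind, were searched on both strands. There was 1 match in the DKK1 window and 0 in that of SFRP4, and 6.86% of all windows held a match.

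The 6 genes fell into 3 levels. DKK1 was abundant in every library and rose about 1.3-fold after 5aza. DKK4 was near 0 in control cells and reached about 3 FPKM (fragments divided by transcript length and by library size) in all 5aza libraries. SFRP1, DKK2, DKK3 and SFRP4 stayed under 0.5 FPKM in every library. DKK1 supplied between 96.8% and 97.5% of the summed FPKM of the 6 genes in 5aza libraries, and between 99.7% and 99.9% in control libraries. The sum of all 6 was between 121.8 and 130.6 FPKM in 5aza libraries and between 94.3 and 95.2 FPKM in control libraries.

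**Figure D1:**
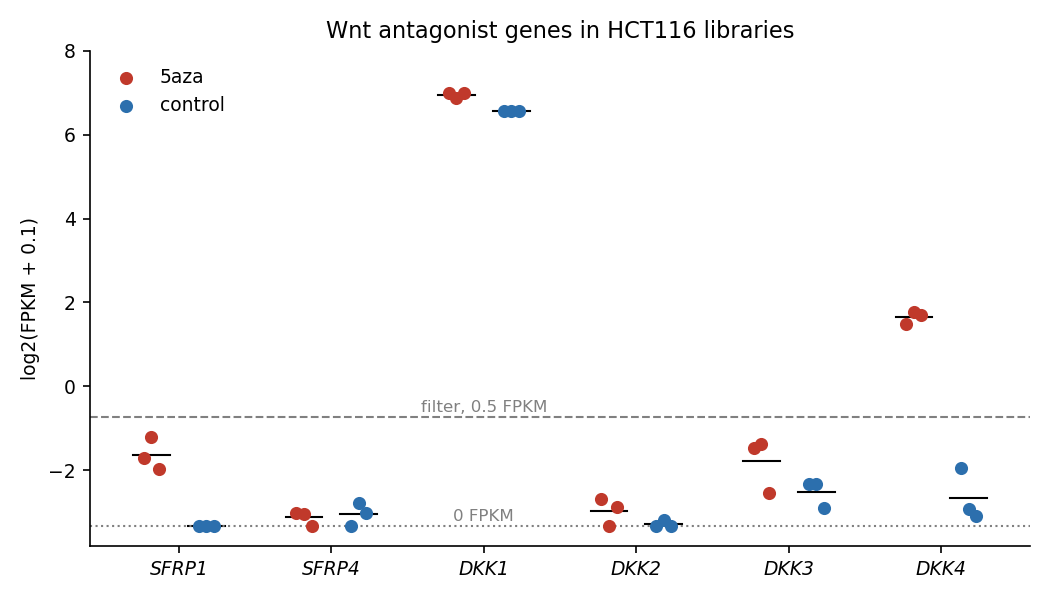
Level of each Wnt antagonist gene with a row, as log2(FPKM + 0.1), in the 3 5aza libraries (red, left) and the 3 control libraries (blue, right); each point is 1 library and each bar is the mean of 3. The groups do not overlap for DKK1, DKK4 and SFRP1, and only DKK1 and DKK4 reached the dashed line at 0.5 FPKM in 3 libraries.

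DKK4 (ENSG00000104371, chromosome 8, 42374068 to 42377232, minus strand, GRCh38) encodes a Dickkopf antagonist of LRP5 and LRP6 and has 1 annotated transcript. Its level was 2.70, 3.30 and 3.13 FPKM in 5aza replicates 1 to 3, and 0.159, 0.0319 and 0.0163 FPKM in control replicates 1 to 3. The lowest 5aza library stood 17.0 times above the highest control library, so the groups lay far apart, while control replicate 1 was well above the other control libraries. The mean was 3.04 ± 0.309 FPKM in 5aza libraries and 0.0691 ± 0.0783 FPKM in control libraries (SD, n = 3 each). The log2 fold change in log2(FPKM + 0.1) was 4.31 (SE 0.32, 95% interval 3.57 to 5.04, limma adjusted p = 1.67e-04). The ratio of means was 44.1, and without control replicate 1 it was 126, since that library holds most of the control signal. The log2 fold change was 1.92 with a pseudocount of 1 and 5.74 with a pseudocount of 0.01, so the size of the rise depends on how values near 0 are treated. DKK4 passed the filter on low values through its 5aza libraries alone, as 4.69% of 4261 genes under 0.5 FPKM in all control libraries did, and such a gene had to differ. With no filter on low values, where DKK4 enters on its control values too, the adjusted p was 3.45e-04. A log2 fold change at least as large was seen for 0.202% of 12360 genes tested, DKK4 included.

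DKK1 (ENSG00000107984, chromosome 10, 52314296 to 52318042, plus strand), the founding Dickkopf antagonist of LRP5 and LRP6, had 127.4, 117.9 and 126.6 FPKM in 5aza replicates 1 to 3. In control replicates 1 to 3 it had 94.96, 94.1 and 94.3 FPKM. Control libraries were nearly equal, 5aza libraries spread more widely, and the lowest 5aza value was 1.24 times the highest control value. The mean was 123.9 ± 5.28 FPKM in 5aza libraries and 94.5 ± 0.445 FPKM in control libraries (SD, n = 3 each), a ratio of 1.31. The log2 fold change was 0.39 (SE 0.036, 95% interval 0.31 to 0.47, limma adjusted p = 4.59e-04). Among the 1442 tested genes with a mean between 1/2 and 2 times that of DKK1, 6.93% rose and 33.7% fell, and 0.971% had a log2 fold change at least as large as that of DKK1. Over all genes tested, 7.73% had one at least as large. PRKG1-AS1, an antisense gene with no row, overlaps DKK1, and since the strand setting of the libraries is not given, reads of the pair cannot be told apart.

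By limma, 2 of the 2 Wnt antagonist genes tested rose and 0 fell, also at an unadjusted p under 0.05. Since DKK4 entered the test through its 5aza libraries alone, this count is a description and supports nothing about the genes as a set. Of all 12360 genes tested, 23.7% changed, with 10.6% up and 13.1% down. When each library was scaled to the same summed FPKM, 2249 genes rose and 779 fell, against 1310 and 1619 without scaling. After removal of the trend with expression level, 1421 rose and 979 fell. DKK1 and DKK4 rose under both. Their log2 fold changes were 0.47 and 4.36 with the common sum, and 0.48 and 4.10 with the trend removed. The median log2 fold change of all genes tested was -0.01. As the plot of all tested genes shows, DKK4 lies among the large rises of scarce genes, and DKK1 among abundant genes whose changes are small.

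**Figure D2:**
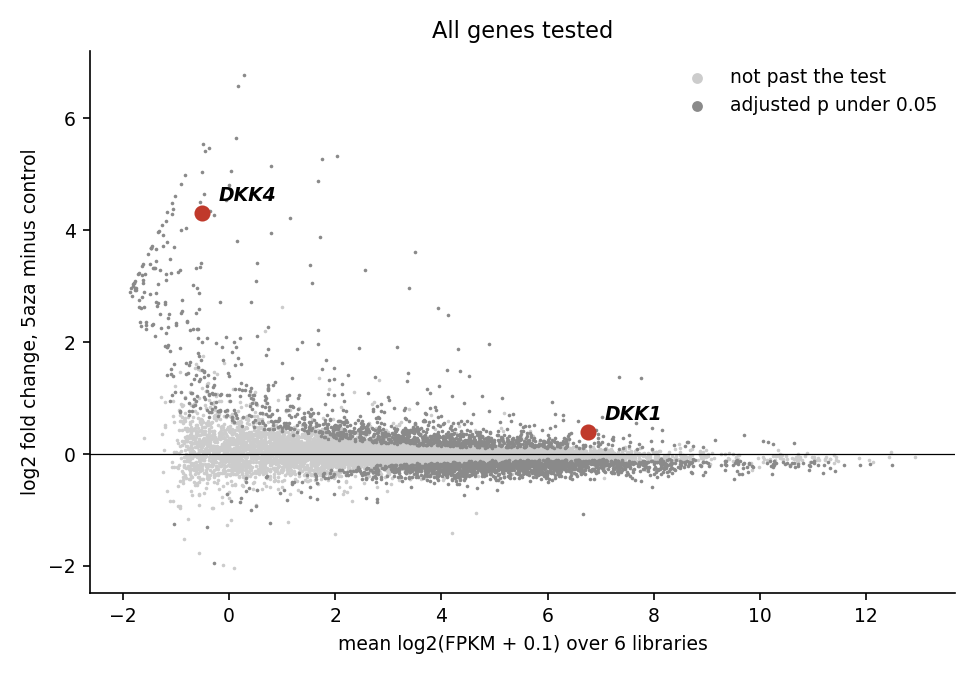
Log2 fold change (5aza minus control) against mean log2(FPKM + 0.1) over 6 libraries for the 12360 genes tested; dark grey points have an adjusted p under 0.05. DKK4 (log2 fold change 4.31) lies among low-level genes with large rises, and DKK1 (0.39) near the upper edge of the abundant genes.

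The ratio of DKK1 to DKK4 shows how unequal the changes were. It was 47.1, 35.7 and 40.5 in 5aza replicates 1 to 3, and 597, 2949 and 5776 in control replicates 1 to 3. Ratios in 5aza libraries were close together and all below those of control libraries, whose spread comes from DKK4 values near 0.

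SFRP1 (ENSG00000104332, chromosome 8, 41261958 to 41309497, minus strand), a frizzled-related protein that binds Wnt ligands, had 0.206, 0.332 and 0.153 FPKM in 5aza replicates 1 to 3. It was listed at 0 in all 3 control libraries. The groups do not overlap, but every value was under the filter of 0.5 FPKM, so SFRP1 was not among the genes tested. The exact two-sided permutation test of the log2 values gave p = 0.10 for SFRP1, DKK1 and DKK4 alike. This is the smallest value that the permutation test allows with 3 libraries against 3. With no filter on low values, limma gave SFRP1 a log2 fold change of 1.69 (SE 0.21, adjusted p = 0.00305), where 10.7% of 16627 genes rose and 8.79% fell. That value is set by the pseudocount, with 0.30 at a pseudocount of 1 and 4.52 at 0.01, and no fold is given against a group listed at 0. Over the 9 alternatives tried with no filter, the adjusted p of SFRP1 was between 9.36e-04 and 0.0218. A start from 0 was common in these libraries: of 918 genes listed at 0 in all 3 control libraries, 48.7% were above 0 in all 3 5aza libraries, and 10% had every 5aza value at or above the lowest of SFRP1. In the other direction, of 137 genes listed at 0 in all 3 5aza libraries, 3.65% were above 0 in all 3 control libraries. The number of genes listed at 0 was between 755 and 801 in 5aza libraries and between 1663 and 1761 in control libraries. The part of this difference in the SFRP1 result was not tested.

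SFRP4 (ENSG00000106483, chromosome 7, 37905932 to 38025695, minus strand), the other frizzled-related gene with a row, was at or near 0 in both groups. It had 0.0227, 0.0220 and 0 FPKM in 5aza replicates 1 to 3, and 0, 0.0447 and 0.0234 FPKM in control replicates 1 to 3. The groups overlap, and the highest value was in a control library. The values above 0 stood at 1.00, 1.03 and 1.06 times the smallest of them, and in control replicate 2 at 2.03 times, so that the values above 0 lay at 1 step or 2. The exact two-sided permutation test gave p = 0.60. With no filter, the log2 fold change was -0.08 (SE 0.18, limma adjusted p = 0.787), and its sign turned without control replicate 2 or without 5aza replicate 3, so no difference was detectable at this depth. Over its GENCODE span, SFRP4 overlaps EPDR1, a gene on the other strand with no row.

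DKK3 (ENSG00000050165, chromosome 11, 11963106 to 12009769, minus strand), which is often called a tumour suppressor, had 0.263, 0.288 and 0.0709 FPKM in 5aza replicates 1 to 3. In control replicates 1 to 3 it had 0.1001, 0.09998 and 0.0341 FPKM. The groups overlap: 2 of the 5aza libraries were above every control library, whereas 5aza replicate 3 lay between control values. The means were 0.207 ± 0.119 FPKM in 5aza libraries and 0.0781 ± 0.0381 FPKM in control libraries (SD, n = 3 each; exact two-sided permutation p = 0.30). With no filter, the DKK3 log2 fold change was 0.72 (SE 0.35, limma adjusted p = 0.201), and only without 5aza replicate 3 did it pass, with 1.1001 and an adjusted p of 0.0459.

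DKK2 (ENSG00000155011, chromosome 4, 106921802 to 107283806, minus strand), which can act on LRP6 as an antagonist or, in some settings, as an agonist, had 0.0544, 0 and 0.0353 FPKM in 5aza replicates 1 to 3. It had 0, 0.0106 and 0 FPKM in control replicates 1 to 3. The groups overlap at 0, and the exact two-sided permutation p was 0.40. With no filter, DKK2 had a log2 fold change of 0.31 (SE 0.19, limma adjusted p = 0.308). The 4 scarce genes together summed to 0.546, 0.642 and 0.259 FPKM in 5aza replicates 1 to 3, against 0.1001, 0.155 and 0.0575 FPKM in control replicates 1 to 3.

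Ordered by level in 5aza libraries, DKK1 came first and DKK4 second, each apart from its neighbours in every library. SFRP1 and DKK3 followed with overlapping values, and then DKK2 and SFRP4, which also overlap. In control libraries DKK1 again came first, DKK3, DKK4 and SFRP4 overlap with each other, DKK2 was above 0 in 1 library, and SFRP1 was listed at 0. DKK4 was 0.319 to 1.59 times DKK3 in control libraries, but between 10.3 and 44.1 times DKK3 in 5aza libraries. In all, the groups did not overlap for 3 of 6 genes, all higher after 5aza, where this held for 21.4% of 16627 genes with a value above 0 and for 19.6% of the genes tested.

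Genes with the most similar profiles were found by the root mean square difference, over the 6 libraries, of log2(FPKM + 0.1) minus the gene's control mean. For DKK4 these were LCN2 (difference 0.16), OOEP (0.27) and GJA1 (0.32), with log2 fold changes of 4.22, 4.002 and 4.27. OOEP and GJA1, with control means of 0.0459 and 0.0910 FPKM, passed the filter through their 5aza libraries alone, as DKK4 did. Over the alternatives their log2 fold changes ranged from 1.54 to 6.38 and from 2.04 to 5.27. LCN2 encodes an iron-siderophore binding protein, OOEP an oocyte protein and GJA1 the gap junction protein connexin 43. For DKK1 they were PPP1R2, CYFIP2 and IL17RD (differences 0.037, 0.038 and 0.039), with log2 fold changes of 0.35, 0.36 and 0.39. None of the 6 lies on the chromosome of the gene it resembles. The genes next to DKK4 were picked by position. POLB, a DNA repair polymerase whose end lies 2.26 kb away, had means of 24.3 ± 1.70 FPKM in 5aza libraries and 20.7 ± 1.18 FPKM in control libraries (SD, n = 3 each; log2 fold change 0.23, limma adjusted p = 0.0383). VDAC3, a channel of the outer mitochondrial membrane 14.4 kb away on the other side, had 112.7 ± 2.49 FPKM in 5aza libraries and 121.3 ± 2.07 FPKM in control libraries (log2 fold change -0.11, adjusted p = 0.0388). Both calls were lost under several alternatives, with adjusted p up to 0.116 for POLB and 0.719 for VDAC3. The change of DKK4 was much larger than that of either neighbour.

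The receptors that DKK1 and DKK4 act on were all expressed. LRP5 had 20.4 ± 0.624 FPKM in 5aza libraries and 22.4 ± 0.668 FPKM in control libraries, and LRP6 had 7.71 ± 0.251 FPKM in 5aza libraries and 6.80 ± 0.559 FPKM in control libraries (SD, n = 3 each); neither passed the test (limma adjusted p = 0.0549 and 0.120). KREMEN2, a partner of DKK proteins at the cell surface, rose to 18.8 ± 0.629 FPKM in 5aza libraries, against 15.2 ± 0.645 FPKM in control libraries (log2 fold change 0.30, adjusted p = 0.00509). KREMEN1 had 17.4 FPKM in 5aza libraries and 17.97 FPKM in control libraries and did not pass, and its log2 fold change of -0.05 turned to 0.03 with a common sum. Over all genes tested, 10.6% rose and 13.1% fell. Among 5 other extracellular inhibitors tested, of 11 with a row, limma called 1 rise and 0 falls (median log2 fold change 0.06), or 1 of each at an unadjusted p under 0.05. The rise was of DRAXIN, an axon guidance protein that can bind LRP6, with 1.63 ± 0.102 FPKM in 5aza libraries and 1.04 ± 0.00348 FPKM in control libraries (adjusted p = 0.0119), a call lost under quantile normalization (adjusted p = 0.0573). IGFBP4, under the filter and not tested, had 0.291 to 0.447 FPKM in 5aza libraries and 0 to 0.0323 FPKM in control libraries. FRZB, also not tested, did not overlap either (means 0.246 FPKM after 5aza and 0.182 FPKM in control libraries). In the remaining untested genes of this list the groups overlapped.

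Among the Wnt ligand genes, 11 were tested, with 2 rises, 1 fall and 8 not past the test (median log2 fold change 0.13). This count and those of the lists below stand beside 10.6% up and 13.1% down over all genes tested. At an unadjusted p under 0.05 by limma, the ligand genes held 4 rises and 1 fall. Over all 12360 genes tested, 2096 rose and 2511 fell at that unadjusted threshold. WNT9A rose by 1.07 on the log2 scale, with 5.14 FPKM in 5aza libraries and 2.40 FPKM in control libraries. WNT7B rose to 4.23 FPKM in 5aza libraries, against 2.79 FPKM in control libraries, a call lost under 7 alternatives, and WNT16, the most abundant ligand gene, fell to 33.0 FPKM in 5aza libraries, against 40.4 FPKM in control libraries. Among 18 receptor and R-spondin genes, limma called 0 rises and 1 fall (median 0.06), or 1 rise and 3 falls at an unadjusted p under 0.05, and the call, of ROR2, was lost under 9 alternatives. Among 4 genes of ligand secretion it called 0, or 1 rise at an unadjusted p under 0.05. The 22 intracellular pathway genes held 2 rises and 5 falls (median -0.02), or 3 rises and 7 falls at an unadjusted p under 0.05. GSK3B, a kinase that marks β-catenin for breakdown, rose by 0.31 on the log2 scale. CTNNB1 had 168.2 FPKM in 5aza libraries and 158.2 FPKM in control libraries, a call lost when any 1 library was left out. AXIN1, a scaffold of the β-catenin destruction complex, and the TCF genes TCF7L1 and TCF7L2 had log2 fold changes of -0.24, -0.21 and -0.21, each call lost with a common sum. The AXIN1 and TCF7L1 calls were also lost when any 1 library other than control replicate 3 was left out, and that of TCF7L1 with the replicate block. The TCF7L2 call was also lost under quantile normalization and with the expression trend removed.

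Known Wnt target genes, 19 of them tested, held 6 rises and 1 fall (median log2 fold change 0.12). With an unadjusted p under 0.05 by limma, these were 8 rises and 2 falls. Over all genes tested, 10.6% rose and 13.1% fell. In the target list the largest rises were of JUN (log2 fold change 0.83), NKD1 (0.47) and CCND1, cyclin D1 (0.46). BMP4 fell by 0.18 on the log2 scale. CCND1, like DKK1, is abundant, with 291.3 FPKM in 5aza libraries and 212.2 FPKM in control libraries. The NKD1 call was lost without any 1 of 4 libraries and under quantile normalization, and the BMP4 call under all 3 scalings tried. AXIN2, the most widely used readout of β-catenin and TCF activity, had 16.1 ± 1.18 FPKM in 5aza libraries and 15.9 ± 0.915 FPKM in control libraries (SD, n = 3 each) and did not pass. The plot by list shows DKK4 far outside the range of every other tested gene of the pathway, while DKK1 lies within it. Only DKK4, of the tested pathway genes, passed the filter through its 5aza libraries alone. Scarce genes that rose from near 0 but stayed under the filter, such as SFRP1 and IGFBP4, are not plotted, so the distance partly reflects the filter.

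**Figure D3:**
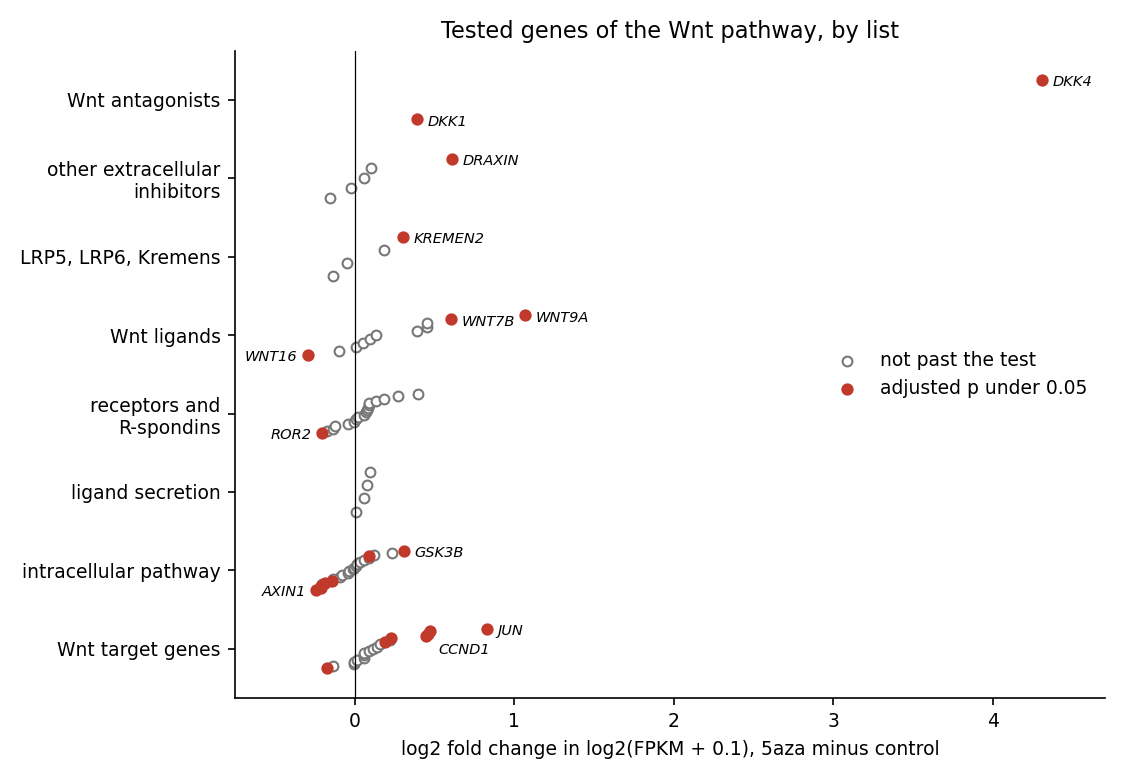
Log2 fold change (5aza minus control) of each tested gene in 8 lists of the Wnt pathway; filled red points have an adjusted p under 0.05. DKK4, at 4.31, lies beyond all others plotted, of which the largest is WNT9A at 1.07. Genes under the filter are not plotted, and only DKK4 passed it through its 5aza libraries alone.

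Summed FPKM was between 577735 and 592051 in 5aza libraries and between 601916 and 628399 in control libraries. DNMT1, which azanucleosides trap, had 47.6 ± 1.35 FPKM in 5aza libraries and 64.0 ± 10.4 FPKM in control libraries (SD, n = 3 each; adjusted p = 0.0236, lost under 5 alternatives). ACTB and GAPDH had log2 fold changes of -0.11 and -0.07 and did not pass, although ACTB passed without control replicate 3 (-0.12, adjusted p = 0.0479). Epithelial markers summed to between 3078 and 3156 FPKM in 5aza libraries and between 2587 and 2744 FPKM in control libraries, mostly from KRT8, KRT18 and KRT19. Of 9 epithelial markers tested, 4 rose (the 3 keratin genes and CDH1), 2 fell (EPCAM and CLDN3, log2 fold changes -0.12 and -0.35) and 3 did not pass. VIL1 and CDH17 were near 0. The shares over all genes tested, to set beside these marker counts, were 10.6% up and 13.1% down. Since SFRP and DKK genes are also made by stromal cells, fibroblast markers were read: the 9 with a row summed to between 33.2 and 35.1 FPKM in 5aza libraries and between 31.4 and 31.8 FPKM in control libraries, mostly from PDGFRA. Of these 9, 3 were tested, of which 2 rose and 1, PDGFRA, did not pass. COL6A3 rose to a mean of 1.19 FPKM in 5aza libraries, against 0.0494 FPKM in control libraries (log2 fold change 3.12, limma adjusted p = 2.44e-04). Like DKK4, COL6A3 passed the filter on low values through its 5aza libraries alone, so it had to differ. COL1A1 rose to 6.71 FPKM in 5aza libraries, against 4.67 FPKM in control libraries (limma adjusted p = 0.00320). THY1, not tested, had 0.252 to 0.550 FPKM in 5aza libraries and 0 to 0.0113 FPKM in control libraries, and LUM and COL1A2 were under 0.1 FPKM in 5aza libraries and listed at 0 in control libraries. The part of the epithelial and fibroblast markers in the DKK and SFRP1 results was not tested. Leukocyte markers summed to between 6.38 and 7.10 FPKM in 5aza libraries and between 3.35 and 4.62 FPKM in control libraries, mostly from CD68, with PTPRC at 0.108 FPKM or less. Endothelial markers summed to at most 0.633 FPKM in any library. In bulk RNA, fewer cells of a kind and less RNA in each cell cannot be told apart, which holds for the DKK4 level too.

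The effect of the processing on both called genes is drawn in the plot of alternatives. DKK1 kept an adjusted p between 1.50e-04 and 0.00563, and DKK4 between 1.80e-05 and 0.00231, over the 17 alternatives.

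**Figure D4:**
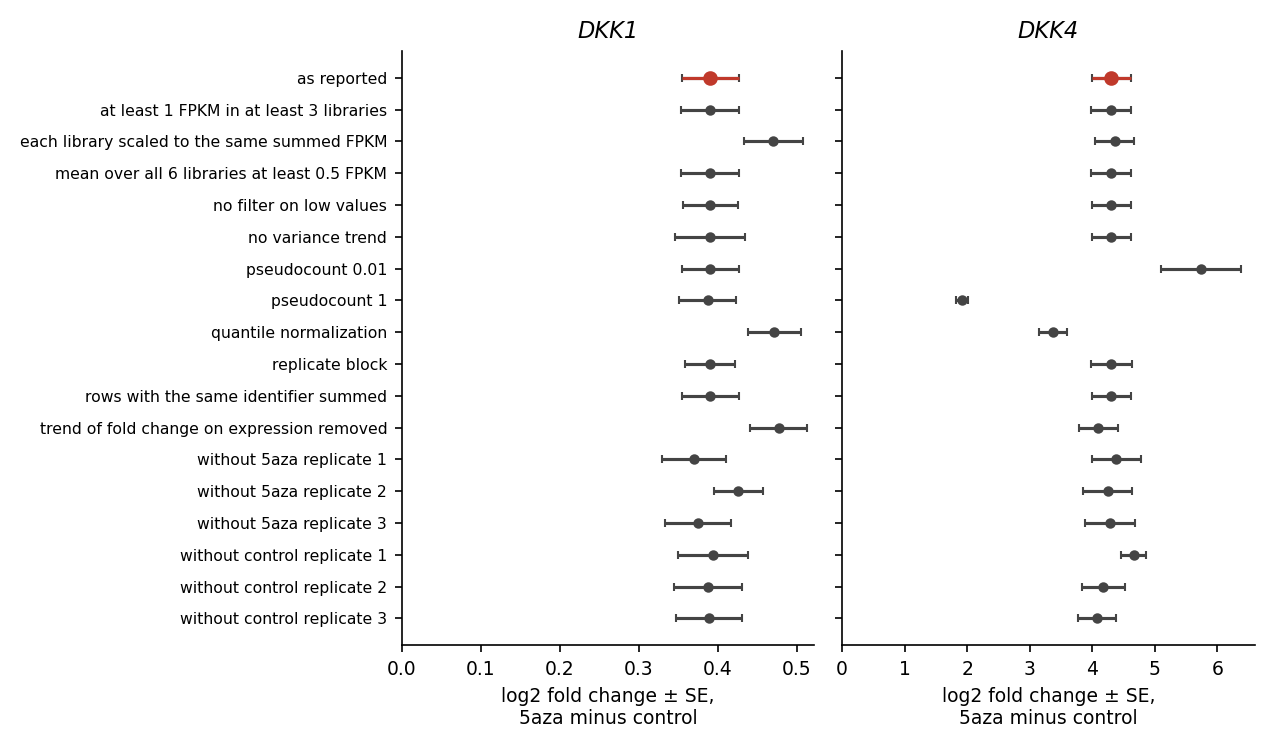
Log2 fold change (5aza minus control) with its SE for DKK1 (left) and DKK4 (right) as reported (red) and under 17 alternatives (dark). DKK1 ranged from 0.37, without 5aza replicate 1, to 0.48, with the expression trend removed. DKK4 ranged from 1.92 to 5.74, its widest spread being between pseudocounts.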

How the data were processed

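RNA was measured in 3 libraries of HCT116 cells given 5aza and 3 of control cells. The values are FPKM per gene in 1 table deposited by the authors, with 16726 rows and 16715 distinct identifiers; 11 identifiers are repeated, and of their rows that of higher mean was used. The builds Rnor_6.0 and GRCh38 and the tools DESeq2 1.10.1, HTSeq 0.6.0 and STAR 2.5.1b are named in the submitters' processing notes, without their roles. No source used here gives the program behind the FPKM values, the strand setting or the number of reads, so no interval from counts or floor is given. Of the 15451 Ensembl identifiers, 15421 were matched to a symbol. Coordinates are from GENCODE release 29 on GRCh38.

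Values were used as log2(FPKM + 0.1), a scale that understates changes near 0. Genes that reached 0.5 FPKM in 3 or more of 6 libraries, 12360 in all, entered limma 3.58.1 under R 4.3.3 (eBayes with a variance trend, two-sided, Benjamini-Hochberg adjustment over all genes tested), and "rose", "fell" and "passed" mean an adjusted p under 0.05. The fit was tested on simulated data. SE refers to the log2 fold change. The replicate libraries are not stated to come from separate cultures, so p-values measure the spread between these libraries, which may be technical. The 9 members and the lists were chosen with earlier results of these data known. Named genes are all members, all LRP and Kremen genes, up to 3 rises and 3 falls of each other pathway list with the largest changes among those past the test (some are given by count only), the 3 genes most like each called member, and DNMT1, ACTB and GAPDH. AXIN2, POLB, VDAC3 and the marker genes were named outside this rule. Alternatives changed the pseudocount, filter, scaling, variance trend, replicate block, repeated rows and libraries used.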

Additional observations from a re-analysis of the deposited data

How the results depend on the processing

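DKK1 and DKK4 rose under all 17 alternatives. The counts over all genes were less steady. Falls, 1619 as reported, numbered 779 with a common sum, 979 with the expression trend removed and 1041 with no variance trend, and rises, 1310 as reported, numbered 2249 with a common sum. Without 1 library at a time, falls were between 940 and 1521 and rises between 890 and 1078; the causes were not tested. Members that rose numbered 2, or 3 with no filter, when SFRP1 was added. ACTB, which did not pass as reported, passed without control replicate 3. Signs turned in genes that did not pass: ACTB to 0.0238 with the trend removed, GAPDH to 0.0147 with a common sum, 0.0504 under quantile normalization and 0.0744 with the trend removed, KREMEN1 to 0.0310 with a common sum, and SFRP4, with no filter, to 0.0424 without control replicate 2 and 0.0125 without 5aza replicate 3. The 9 alternatives with no filter together with another choice were added after seeing the data. The groups share replicate numbers, but deviations of same-numbered libraries correlated at only 0.048, 0.077 and 0.068, although each library correlated best with its own number. The replicate block gave 1259 rises and 1673 falls, and adjusted p of 0.00224 for DKK1 and 0.00199 for DKK4. The number of reads is not known, so the precision of the values near 0 (SFRP1, SFRP4, DKK2, DKK3 and DKK4 in control libraries) could not be given.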
